A study of Mus musculus with 4 samples.

Results

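The genes of the cytosolic ribosomal proteins were followed through mouse bone marrow, as a share of the transcripts of each cell type, and compared between wild type (WT) and YAP1 heterozygote mice. The members were chosen by gene symbol: Rps or Rpl with a number and at most a short ending such as a, x, l or l1, which takes in the paralogs. Rpsa, Rplp0, Rplp1 and Rplp2 were added. Longer symbols such as Rps6kb1 and pseudogene rows (symbols with -ps) were left out. Fau and Rack1, which also encode proteins of the ribosome, fall outside this rule and are given beside the members. The rule found 84 members among the 32544 genes of the deposited tables, 32 of the small and 52 of the large ribosomal subunit. Of these, 83 had at least 1 unique molecular identifier (UMI, the tag that marks 1 captured RNA molecule), and Rpl10l had 0. The 9 pseudogene rows left out of the rule held UMIs equal to 0.0662% of those of the members.

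Mice were 10 weeks old, and their nucleated marrow cells, sorted by flow cytometry, were profiled cell by cell with droplet RNA sequencing that reads transcripts from their 3′ ends, with 2 WT and 2 YAP1 heterozygote libraries. YAP1 is a coactivator of transcription that Hippo signalling keeps out of the nucleus, and the labels give no other allele, no treatment, no strain, no sort gates and no details of the Yap1 allele. They do not say whether the libraries of a group came from separate animals, so the p-values measure the spread between libraries, which may be technical. Values for the 4 libraries are given in the order WT replicate 1, WT replicate 2, YAP1 heterozygote replicate 1 and YAP1 heterozygote replicate 2.

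The libraries held 11346 to 14352 barcodes and 112806900 to 119855112 UMIs each, and 47581 cells were kept. Clustering without the member genes gave 32 clusters, named as "-like" classes from marker genes, and 18 classes had at least 20 cells in every library. Cluster 15, led by C1qb, Cd209a and class II genes, stayed unnamed and was kept under its number. Cluster 6, led by Cxcl2, Acod1 and Clec4e, had 547 of its 595 cells in WT replicate 1 and entered no class. The erythroblast-like class fell to 15 cells in 1 library and was not tested. Pairs of libraries shared 27 to 62 barcodes. Yap1 was too rare to check the genotype labels: the kept cells held 6, 7, 0 and 6 Yap1 UMIs.

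Each cytosolic ribosome is built from ribosomal RNA and about the same amount of every ribosomal protein, so the members are made together and in bulk in cells that grow. Their mRNAs carry a terminal oligopyrimidine (TOP) tract at the 5′ end, a C at the cap followed by a run of C and T, through which mTOR and Larp1 control their translation. In bone marrow they are known from Diamond-Blackfan anemia, in which a damaged copy of a gene such as Rps19, Rpl5 or Rpl11 impairs red cell formation. A few members have a paralog that can take their place in the ribosome, with restricted use between tissues.

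A feature of the members that the naming rule did not use is the TOP tract. RefSeq start sites on GRCm38.p6 were at hand for 64 of the 84 members. A C at the annotated start followed by 4 or more C or T, read on the strand of the gene, was found in 13 of these 64 (20.3%), against 813 of 27025 genes (3.01%), 0 of 69 mitochondrial ribosomal protein genes and 2 of 13 other genes known for a TOP mRNA. A run of 7 or more C or T within 15 bases on either side of the start was found in 34 members (53.1%), 21.3% of all genes, 15.9% of the mitochondrial ribosomal protein genes and 46.2% of the other TOP genes. A match describes these letters only, and an annotated start can lie some bases from the start in use. The windows below hold 10 bases before and 15 bases from the start, with runs of 5 or more C or T in capitals. They are shown for members that the results turn on, first those with a C at the annotated start followed by 4 or more C or T, then those without.
Rps27: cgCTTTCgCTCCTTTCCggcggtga (chr3:90213634-90213658, - strand)
Rpl38: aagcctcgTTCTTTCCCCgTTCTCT (chr11:114668570-114668594, + strand)
Rps10: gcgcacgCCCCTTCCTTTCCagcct (chr17:27635230-27635254, - strand)
Rpl35: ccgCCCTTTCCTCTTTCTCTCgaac (chr2:39005117-39005141, - strand)
Rps21: aggacccgCCCTCCTgcccaatagt (chr2:180257369-180257393, + strand)
Rps27l: CCTCCCCgccgCCTCTatcccggaa (chr9:66946076-66946100, + strand)
Rps9: cttgTCTCTCTTTgtctcgggcctg (chr7:3704031-3704055, + strand)
Rpl12: agcaggatccgTCTTTTCggCTTTC (chr2:32961702-32961726, + strand)
Rpl36al: ccgtcgctcaggttcagttccgact (chr12:69184053-69184077, - strand)
Rpl3l: ttctagctctgtcatttgaCCTCTg (chr17:24727816-24727840, + strand)
Rps27 has a tract over its start, while its paralog Rps27l has C and T runs that end before the annotated start and again inside the window. The window of Rpl36al holds no run of 5, and that of Rpl3l only a run downstream of the annotated start.

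Ribosomal protein transcripts took from under 3% to more than 30% of a cell class's UMIs, and the order of the classes was nearly the same in all 4 libraries. The share was highest in the T cell-like class, at 33.3, 33.3, 33.5 and 35.7% of UMIs (34.0% ± 1.15, SD over 4 libraries). The stem and progenitor classes followed, with 29.8% ± 1.06 in hematopoietic stem and progenitor (HSPC)-like, 29.5% ± 0.379 in erythroid progenitor-like, 28.1% ± 0.535 in megakaryocyte-like and 26.5% ± 0.344 in granulocyte-monocyte progenitor-like cells. The ranges of the HSPC-like class (28.8 to 31.0%) and of the erythroid progenitor-like class (29.2 to 30.1%) overlapped, so these neighbours cannot be ordered. Neither the T cell-like nor the granulocyte-monocyte progenitor-like libraries overlapped with these 2 classes.

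Below these came mature B cell-like (24.99% ± 0.928), NK cell or ILC-like (24.4% ± 0.369), cluster 15 (23.5% ± 0.528), B cell precursor-like (22.4% ± 1.12), plasmacytoid dendritic cell-like (20.4% ± 0.538), monocyte-like (19.9% ± 0.469) and basophil or mast cell-like cells (18.6% ± 0.918). Nonclassical monocyte-like cells had 13.7% ± 1.32, plasma cell-like cells 9.50% ± 1.08 and macrophage-like cells 9.23% ± 1.39. The neutrophil classes were lowest, with 6.42% ± 0.138 in precursors, 3.31% ± 0.0658 in immature and 2.81% ± 0.166 in mature neutrophil-like cells. The mature class held 2.90, 2.66, 2.68 and 2.996%.

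A share depends on what else a cell makes. In plasma cell-like cells, 61.2% of UMIs came from hemoglobin, immunoglobulin, S100, granule and mitochondrial genes. The 10 genes that led this class were Jchain and immunoglobulin genes. Without those genes in the denominator the share rose to 24.5%, above that of B cell precursors (23.6%). In the neutrophil classes these genes took 39.2 to 52.7% of UMIs. Without them the share was 11.7%, 7.01% and 4.62% from precursor to mature, still the lowest 3 means of the 18 classes. Counted per cell, erythroid progenitor-like cells held the most member UMIs, 8874 on average, then granulocyte-monocyte progenitor-like cells with 7309.9 and megakaryocyte-like cells with 5788. T cell-like cells, first by share, held 1678, and mature neutrophil-like cells 120.2. In single-cell counts less RNA per cell and lower capture cannot be told apart. The neutrophil transcript S100a9 stood at 1986 CPM (CPM stands for a gene's UMIs scaled to a common UMI total per class) in mature B cell-like and 3536 CPM in T cell-like cells, and at 53929 CPM in nonclassical monocyte-like and 75982 CPM in macrophage-like cells, against 163508 CPM in mature neutrophil-like cells. The part of free RNA or of doublets that were not called in these levels and in the shares was not tested.

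**Figure D1:**
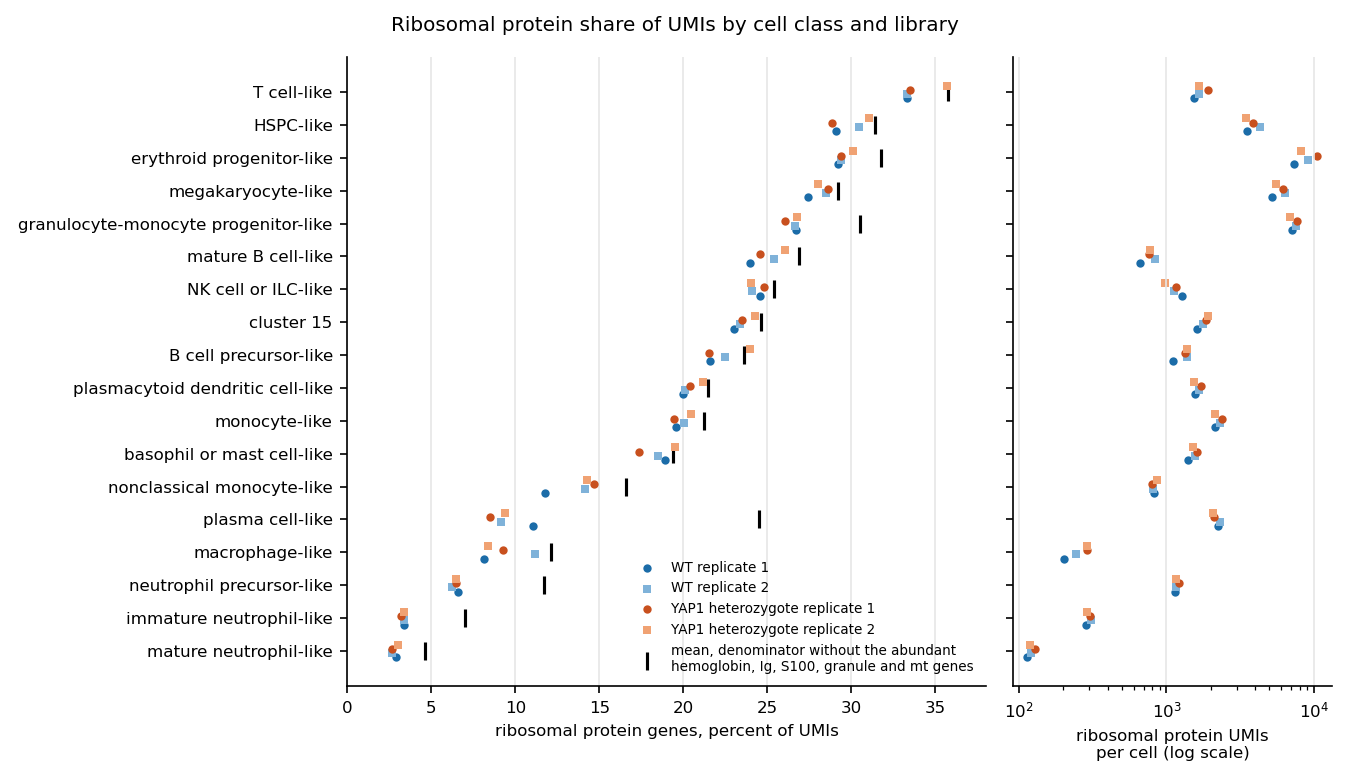
Left, member UMIs as a percent of all UMIs (linear axis) in each of 18 classes, 1 point per library. Black ticks give the mean with the denominator that leaves out the hemoglobin, immunoglobulin, S100, granule and mitochondrial genes. Right, member UMIs per cell on a log axis. Shares run from 34.0% in T cell-like to 2.81% in mature neutrophil-like cells, and the plasma cell-like tick lies at 24.5%.

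Along the granulocytic clusters, ordered by their markers from progenitor to mature, most of the drop in share lay between 2 neighbouring clusters. The 2 granulocyte-monocyte progenitor-like clusters held 29.5, 29.5, 28.8 and 30.03% (cluster 8, led by Prg2 and Cd34) and 24.4, 24.4, 24.0 and 24.0% (cluster 10, led by Elane and Prtn3, genes of primary granules). The next clusters, led by Chil3, Camp and Orm1, already held 6.55, 5.997, 6.44 and 6.39% (cluster 11) and 6.57, 6.73, 6.46 and 6.61% (cluster 18). Immature neutrophil-like clusters held 3.71, 3.73, 3.55 and 3.70% (cluster 9, led by AA467197 and Orm1) and 2.69, 2.67, 2.59 and 2.68% (cluster 17, led by Mmp8 and Mmp9). Among the mature clusters the lowest was cluster 21, led by Retnlg and Mmp8, with 2.49, 2.42, 2.38 and 2.49%. The share was higher again in cluster 0, led by Il1b and Ptgs2, with 4.06, 4.01, 4.32 and 4.76%, and in every library this exceeded the other 4 mature clusters. The abundant genes left out above for the classes took 17.7% of UMIs in cluster 0 and 48.6% in cluster 21. Without them in the denominator the mean shares lay closer, at 5.21% in cluster 0 and 4.76% in cluster 21. Clusters 1, 20 and 2 then held 4.51, 4.39 and 4.35%. Cells of cluster 0 were the shallowest of the mature clusters, with a median of 2269.5 UMIs, and held 107 member UMIs per cell against 158 in cluster 21, so its higher share came with fewer member molecules than in cluster 21. From precursor to mature neutrophil-like the differences in share were -3.66, -3.57, -3.77 and -3.46 percentage points, lower in 4 of 4 libraries (-3.62 ± 0.132). An exact two-sided sign-flip test over 4 libraries gave p = 0.13, the smallest it allows.

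In the B lineage the share did not move one way. Cluster 4, led by the surrogate light chain genes Vpreb1 and Igll1, held 22.2, 22.3, 21.2 and 24.7%, and cluster 25, led by Myl4 and Vpreb3 and with the most UMIs per cell of these clusters (median 8610.0), held 24.3, 24.6, 24.0 and 26.5%. Cluster 3, led by the recombinase gene Rag1, was lowest with 16.8, 18.5, 17.2 and 18.8%. Cluster 12, led by Ms4a1, held 19.1, 19.4, 19.1 and 20.8% and cluster 19, led by Ighd, 26.9, 27.1, 26.9 and 27.8%. The mature class exceeded the precursor class by 2.36, 2.90, 3.01 and 2.13 percentage points (2.60 ± 0.424, exact sign-flip p = 0.13). With called doublets kept and the cells clustered again, the mature class fell to 20.8% and the difference turned to -1.20 points, so its direction depends on which cells the classes hold.

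Between HSPC-like cells and the 2 lineages next to them the shares were close. Erythroid progenitor-like minus HSPC-like gave 0.121, -1.06, 0.574 and -0.956 percentage points (-0.330 ± 0.805, lower in 2 of 4 libraries, exact sign-flip p = 0.5). The mean turned to 0.368 with the alternative denominator and to 0.124 with doublets kept. Megakaryocyte-like minus HSPC-like gave -1.66, -1.94, -0.244 and -3.02 points (-1.72 ± 1.14, lower in 4 of 4, exact p = 0.13). Adjusted over the 4 stage comparisons the exact p-values were 0.167, or 0.5 for the erythroid comparison.

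**Figure D2:**
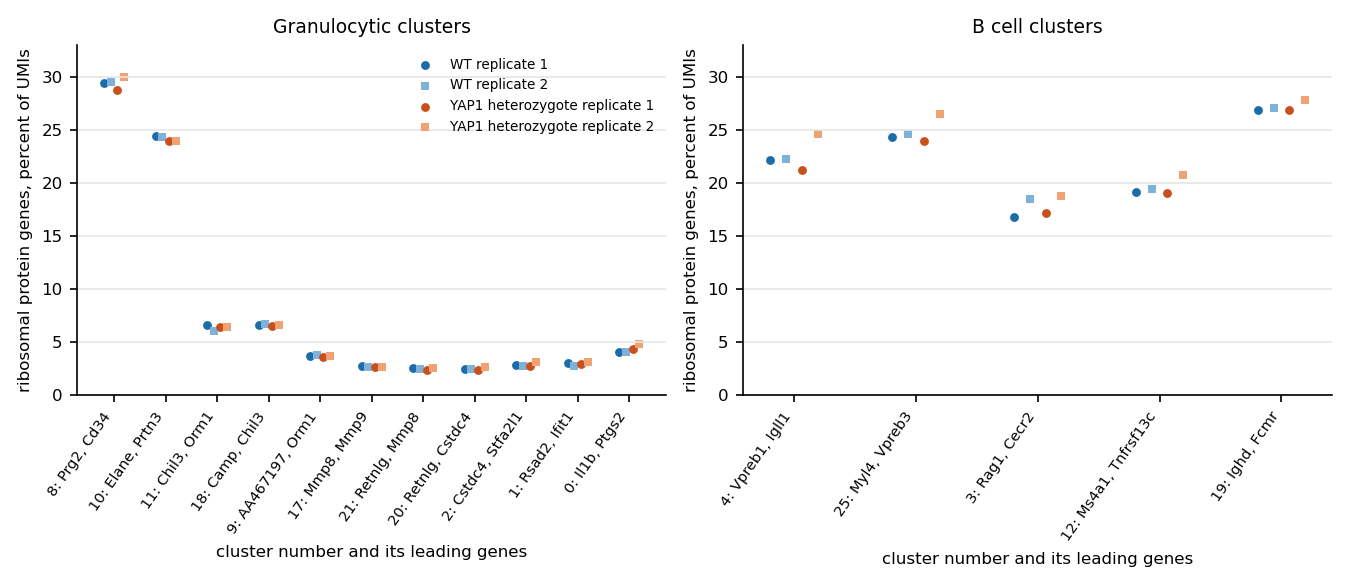
Member UMIs as a percent of all UMIs (linear axis from 0) in the granulocytic clusters, left, and the B cell clusters, right, labelled with their number and 2 leading genes, 1 point per library. The granulocytic share drops between cluster 10 (24.2%) and cluster 11 (6.35%) and is 4.29% in cluster 0.

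Within the pool of member UMIs, most members held a similar part in every class, and the mature neutrophil-like class stood furthest from the others. The steadiest members were Rpl23 and Rpl11, whose highest class exceeded the lowest by 1.26-fold and 1.28-fold. A 3′ UMI counts molecules and does not scale with transcript length, but the priming site differs between genes, so levels of different genes are set side by side only as counts of captured molecules. Among the members with the most UMIs over all kept cells were Rps12 (1742624), Rps24 (1735749), Rps27a (1637731) and Rpl13 (1620551). The fewest above 0 came from Rpl39l (275), Rpl3l (1252), Rpl7l1 (24260), Rpl13a (95698) and Rps27l (118268). Rpl13a has many near-identical processed copies in the mouse genome, so its count is uncertain, and other members share this limit to a lesser degree. Small-subunit genes held 45.8% (NK cell or ILC-like) to 51.3% (mature neutrophil-like) of member UMIs.

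In mature neutrophil-like cells, whose member pool was only 2.81% of UMIs, a few members made up a larger part of that pool. Rps9, a small-subunit protein that binds early in assembly, made up 8.08, 9.25, 8.16 and 8.62% of member UMIs there, against 1.48, 1.503, 1.498 and 1.49% in megakaryocyte-like cells, the lowest class. The 4 libraries of each class did not overlap. Rps27a, which is made as a fusion with ubiquitin, made up 6.41, 6.80, 7.24 and 6.74% against 1.53, 1.59, 1.54 and 1.58% in mature B cell-like cells. Rps27, a zinc-finger protein of the small subunit, made up 3.46, 2.56, 2.77 and 2.87% against 0.774, 0.609, 0.628 and 0.669% in granulocyte-monocyte progenitor-like cells. Rpl37, a zinc-binding protein of the large subunit, made up 3.82, 3.17, 3.22 and 3.44% against 1.12, 0.880, 0.931 and 0.928% in megakaryocyte-like cells. For each of these 4 the mean part of the pool was higher in the mature neutrophil-like class than in any other of the 18 classes. As a level, Rps9 was lower there (2341, 2459, 2182 and 2582 CPM) than in megakaryocyte-like cells (4059, 4282, 4281 and 4171 CPM). So was Rpl37, at 1107, 843, 863 and 1031 against 3077, 2507, 2661 and 2599 CPM. Rps27 stood at 1002, 679.5, 742 and 861 CPM, against a mean of 1778 CPM in granulocyte-monocyte progenitor-like cells.

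Other members made up a smaller part of the pool in mature neutrophil-like cells than in their highest class, or stood out in another class. Rpl12, part of the large-subunit centre that activates translation GTPases, made up 0.235, 0.245, 0.226 and 0.272% in mature neutrophil-like and 1.76, 1.98, 1.88 and 1.92% in T cell-like cells. Rps2, which lies at the mRNA entry site of the small subunit, made up 0.555, 0.607, 0.559 and 0.551% in mature neutrophil-like and 2.46, 2.89, 2.83 and 2.63% in erythroid progenitor-like cells, its highest class. Rpl31, a large-subunit protein at the exit of the peptide tunnel, stood out in plasmacytoid dendritic cell-like cells with 1.32, 1.20, 1.27 and 1.25%, against 0.403, 0.274, 0.341 and 0.317% in NK cell or ILC-like cells. The next class after plasmacytoid dendritic cells, immature neutrophil-like, held 0.775, 0.660, 0.733 and 0.714%, so the libraries did not overlap. Rpl36al, an autosomal paralog of the X-linked Rpl36a, ran from 0.0882, 0.0688, 0.0783 and 0.0745% in mature neutrophil-like to 0.732, 0.742, 0.814 and 0.878% in plasma cell-like cells. These 8 genes had the highest coefficient of variation over classes, from 0.368 for Rpl12 to 0.651 for Rps9, among members with at least 0.2% of the pool.

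**Figure D3:**
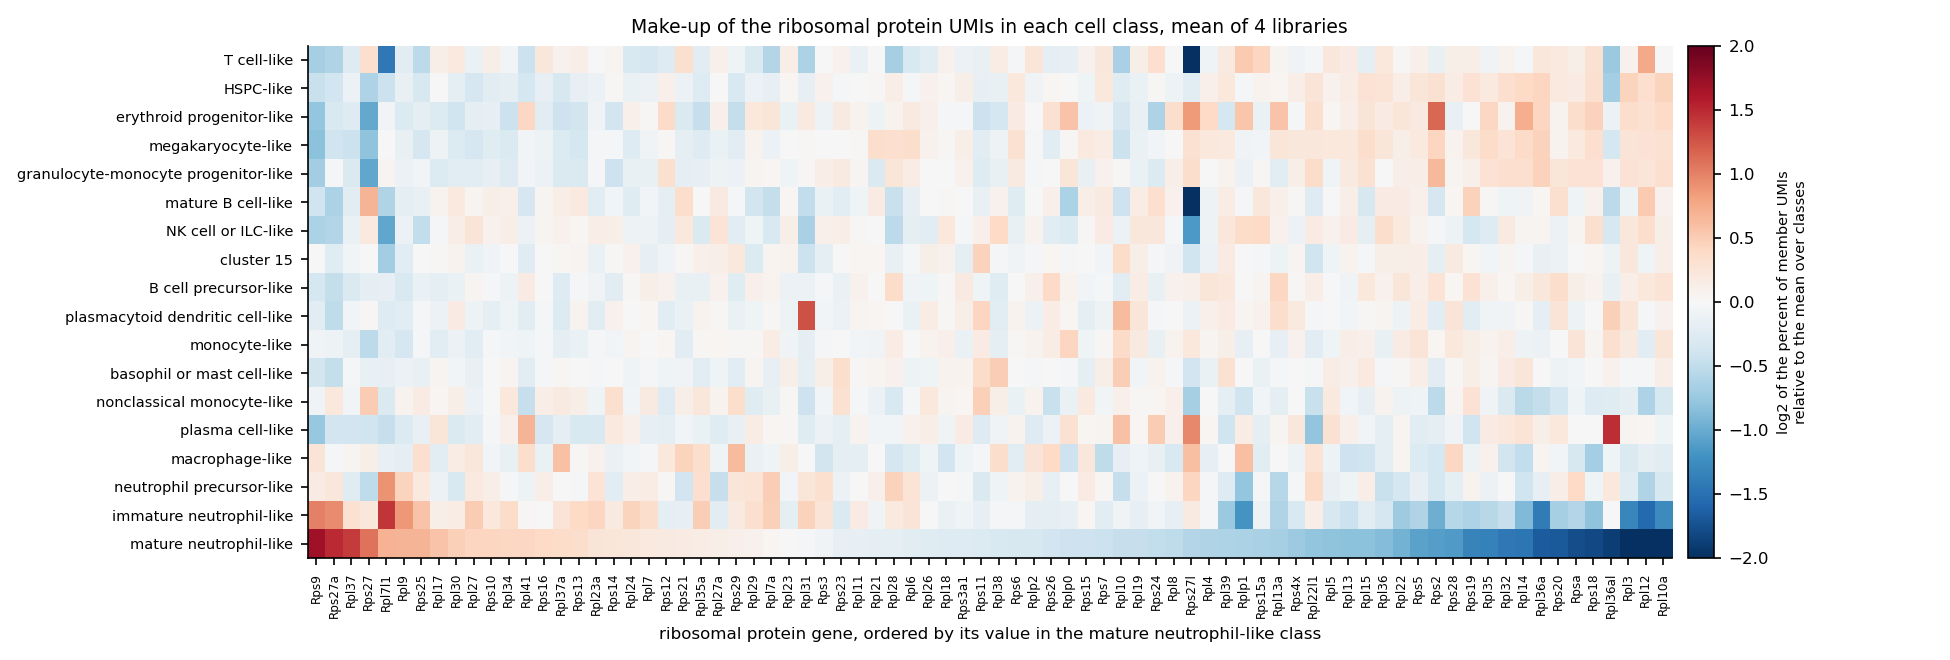
Each member's percent of the member UMIs in a class relative to its mean over classes, as a log2 ratio (color, limited at -2 and 2), mean of 4 libraries, for 18 classes (rows) and most of the more abundant members (columns), ordered by the mature neutrophil-like class. The bottom row shows Rps9, Rps27a, Rpl37 and Rps27 high and Rpl10a, Rpl12, Rpl3 and Rpl36al low in mature neutrophil-like cells, and single dark cells mark Rpl31 in plasmacytoid dendritic cell-like and Rpl36al in plasma cell-like cells.

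For the paralog pairs, a value below is the percent of a pair's UMIs that came from the alternative gene. Rps27l, a target of p53 and paralog of Rps27, supplied 11.9, 14.03, 14.7 and 14.004% of its pair over all kept cells. It was highest in erythroid progenitor-like cells, with 24.7, 27.7, 29.5 and 28.3% (27.5% ± 2.03). Granulocyte-monocyte progenitor-like cells followed with 19.6, 21.4, 21.8 and 21.8%, below all 4 erythroid values, and plasma cell-like cells with 23.0, 18.6, 19.2 and 23.1%. It was lowest in mature B cell-like (1.10, 1.40, 1.499 and 1.55%), T cell-like (1.66, 1.84, 2.29 and 2.19%) and mature neutrophil-like cells (3.04, 3.29, 3.13 and 3.05%). B cell precursor-like cells held 9.04, 11.3, 11.3 and 13.6%, above mature B cell-like cells in every library.

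Rpl22l1, the paralog of the RNA-binding protein Rpl22, gave 39.7% ± 2.28 of its pair in immature neutrophil-like and 38.1% ± 1.80 in neutrophil precursor-like cells, and 17.1% ± 4.23 in plasma cell-like cells. The other 15 classes lay between 20.6 and 30.5%. Rpl36al was the larger part of its pair in immature neutrophil-like (61.4, 62.5, 60.0 and 58.1%) and plasma cell-like cells (57.0, 59.5, 59.1 and 62.7%), and the smaller part in HSPC-like cells (19.5, 22.2, 20.5 and 22.8%). In mature neutrophil-like cells it was back at 34.5, 34.6, 32.7 and 31.2%. Rpl7l1, a nucleolar relative of Rpl7, stayed a minor part, from 1.51% ± 0.193 in T cell-like to 6.48% ± 0.873 in immature neutrophil-like cells. Rpl39l, known from testis, held at most 0.236% of its pair in any class mean, that of immature neutrophil-like cells, and Rpl10l had 0 UMIs, which allows up to 0.000328% of its pair. The symbols Rpl6l and Rps4l were not analysed here.

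Rpl3l, known as the form of Rpl3 in heart and skeletal muscle, gave 25.2, 13.6, 19.3 and 17.8% of its pair in mature neutrophil-like cells, from 578 Rpl3l UMIs in 509 of 11952 cells. The 4 libraries were far apart, with WT replicate 1 highest and WT replicate 2 lowest. Rpl3l held 5.39, 2.53, 3.41 and 3.43% in immature neutrophil-like and 2.51, 1.77, 2.20 and 2.54% in nonclassical monocyte-like cells, and 0.343, 0.454, 0.351 and 0.518% in B cell precursor-like cells. In the other 13 classes with a value the mean was at most 0.156%. As a level, Rpl3l stood at 18.8, 17.2, 21.6 and 20.8 CPM in nonclassical monocyte-like cells (mean 19.6 CPM), above its mean of 11.5 CPM in mature neutrophil-like cells, and at 32.1, 23.6, 16.2 and 18.3 CPM in cluster 0 (Il1b, Ptgs2) and 17.6, 20.3, 18.2 and 18.1 CPM in cluster 4 (Vpreb1, Igll1). Part of the percent follows Rpl3, whose level was 48.2 CPM in mature neutrophil-like and 393 CPM in precursor-like cells. Msrb1, a methionine sulfoxide reductase gene, begins 498 bases downstream of Rpl3l on the same strand (Rpl3l chr17:24727820-24736143, Msrb1 chr17:24736642-24742778, GRCm38). Msrb1 was at 2509 CPM in mature neutrophil-like, 1091 CPM in nonclassical monocyte-like and 914 CPM in monocyte-like cells, where Rpl3l was at 1.23 CPM, and at 92.5 CPM in cluster 4. The part of Msrb1 reads in the Rpl3l counts was not tested.

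**Figure D4:**
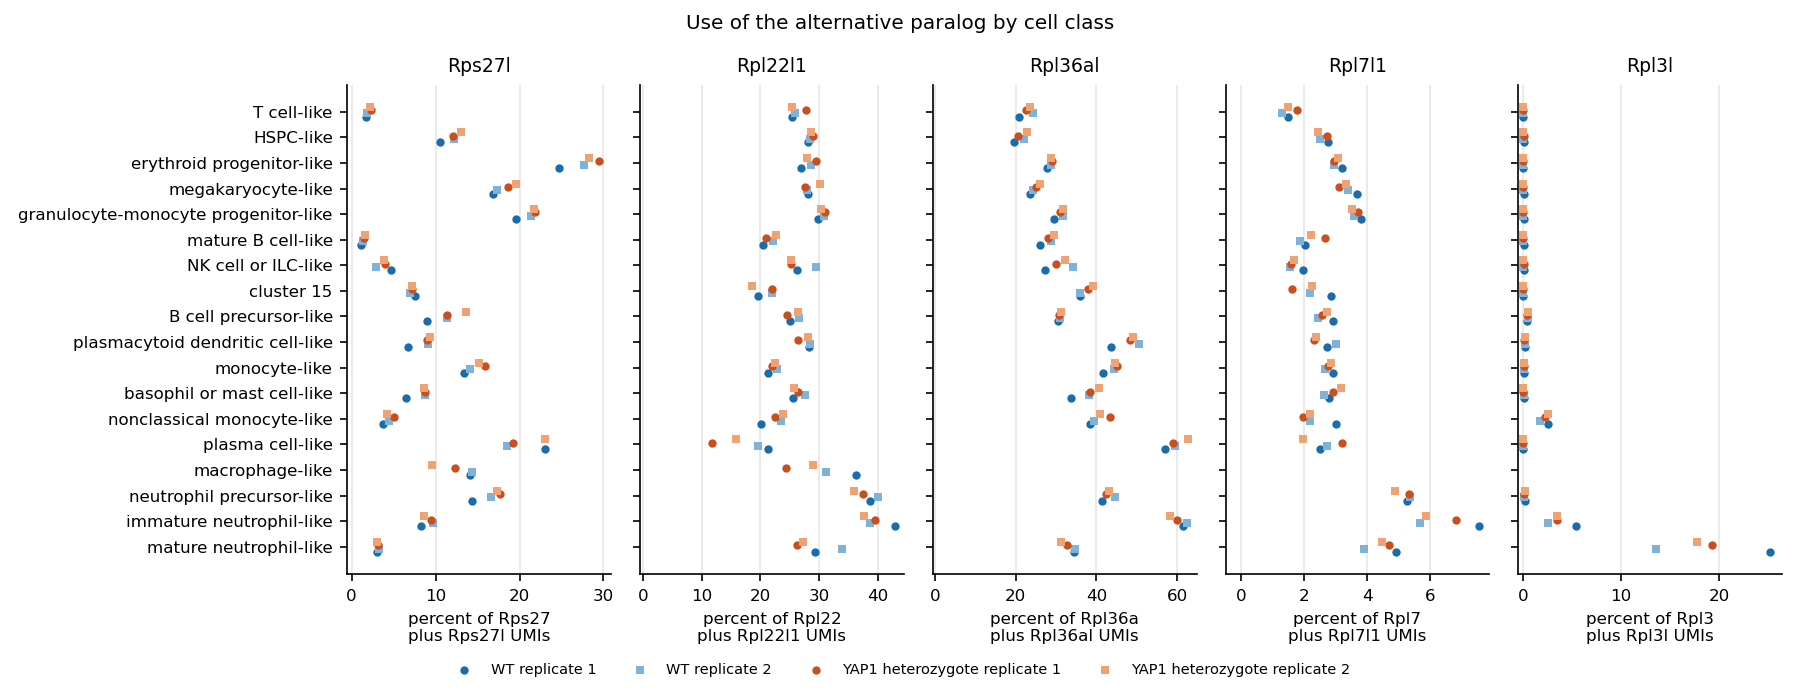
Percent of each pair's UMIs from the alternative gene (linear axes with different ranges, each from 0) for 5 pairs, by class, 1 point per library. Rps27l peaks in erythroid progenitor-like cells (27.5%), Rpl36al in immature neutrophil-like and plasma cell-like cells, and Rpl3l in mature neutrophil-like cells. Pairs with under 100 UMIs in a library of a class have no points.

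Member by member, the neutrophil stages had the largest median change of the 4 stage comparisons. Changes were tested on UMIs summed per library and class (edgeR quasi-likelihood test with the library as a block, TMM scaling, adjusted p over all genes tested). CPM values in a sentence on a gene are given first for the later and then for the earlier stage. From neutrophil precursor-like to mature neutrophil-like cells, 80 of the 82 members tested passed the threshold, 5 higher and 75 lower, where 87.1% of all genes passed (42.1% higher, 45% lower). The median member change was -1.01 on the log2 scale, against -0.06 for all genes tested. Scaling by library totals in place of TMM, an alternative chosen after seeing the data, moved the median of all genes to -0.52 and gave 4 higher and 77 lower members. Of all 10367 genes, 3238 were then higher and 5767 lower.

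The 5 members that fell most came from both subunits. Rpsa, a small-subunit protein also known as a laminin receptor, went from 1240.3, 1369, 1325 and 1339 CPM in precursors to 130.2, 128, 119 and 138 CPM in mature cells. No library of one stage came near the other (log2 change -2.90 ± 0.057 SE, adjusted p 7.93e-14). Rpl10a, of the large-subunit stalk beside the tRNA exit site, stood at 55.4, 45.0, 41.3 and 50.2 against 400.4, 411, 422 and 411 CPM (log2 change -2.64 ± 0.071). Rpl3, which reaches the peptidyl transferase centre, stood at 50.4, 50.2, 44.3 and 48.0 against 392, 399, 398 and 383 CPM (log2 change -2.57 ± 0.059). Rpl36al (-2.83 ± 0.067) and Rps20 (-2.54 ± 0.056), a protein of the small-subunit head, fell to a like degree.

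A group of 5 members was higher in the mature class. Rpl37 stood at 1107, 843, 863 and 1031 against 813, 636, 659 and 711 CPM (log2 change 0.91 ± 0.052), Rps27 at 1002, 679.5, 742 and 861 against 736, 554, 581 and 616 CPM (0.86 ± 0.052) and Rps9 at 2341, 2459, 2182 and 2582 against 1852, 1967, 1885 and 1885 CPM (0.79 ± 0.053). These 3 were higher in the mature class in every library and under both scalings. Rps27a was called higher with TMM (0.52 ± 0.054) from nearly equal CPM values, 1857, 1809.5, 1936 and 2019 against 1867, 1769, 1853 and 1828, and with library totals it did not pass (log2 change 0.058, adjusted p 0.244). Rpl3l was higher, at 16.96, 7.90, 10.6 and 10.4 against 0.867, 0.159, 0.362 and 0.565 CPM, from 27 UMIs in the precursors (log2 change 4.97 ± 0.20, which with so few counts depends on the prior count of the fit).

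From B cell precursor-like to mature B cell-like cells, 71 of 82 members passed, 61 higher and 10 lower, where 70.5% of all genes passed (35.5% higher, 35% lower). The median member change was 0.24. With library totals the split was 45 higher and 19 lower, as the median of all genes moved from 0.00 to -0.14. Of all 10778 genes, 3113 were then higher and 4489 lower. Rps27 rose most, at 6034, 5142, 5189.7 and 5673 against 3139.6, 2471, 2477 and 2659 CPM (log2 change 1.18 ± 0.032, adjusted p 2.55e-14). Its paralog Rps27l fell, at 67.0, 72.9, 79.0 and 89.3 against 312, 315, 317 and 419 CPM (-2.004 ± 0.061, adjusted p 8.49e-14). The pair thus moved in opposite directions in all 4 libraries. Rps24, a Diamond-Blackfan anemia gene, stood at 7669.9, 8537, 8378 and 8998 against 5065, 5344, 5264 and 5926 CPM (0.78 ± 0.027), and Rps21 (0.81 ± 0.033), Rpl37a (0.69 ± 0.031) and the RNA-binding Rpl30 (0.64 ± 0.033) also rose.

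Among the 10 that were lower, Rpl28, a large-subunit protein, stood at 2318, 2487, 2433 and 2714 against 3578, 4039, 3783 and 4291 CPM (log2 change -0.52 ± 0.032). Rplp0, the base of the acidic stalk, stood at 1637, 2141, 1769.7 and 2022 against 2351, 3068, 2640.5 and 3042 CPM (-0.41 ± 0.035). Rpl3l had 3 UMIs in 5508 mature and 173 UMIs in 4004 precursor cells, at 0.609, 0, 0 and 0.186 against 5.52, 8.52, 6.07 and 9.78 CPM (adjusted p 1.13e-07).

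From HSPC-like to erythroid progenitor-like cells, 72 of 81 members passed, 68 higher and 4 lower with TMM, where 80.8% of all genes passed (39.9% higher, 40.8% lower), but 29 higher and 37 lower with library totals, which moved the median of all genes from -0.02 to -0.36. With library totals 3014 of all 10599 genes were higher and 5537 lower. The median of the members moved from 0.29 to -0.05, and so stayed above that of all genes under both scalings. Rps27l stood at 769.7, 689, 773 and 781 against 357, 336, 337 and 409 CPM (log2 change 1.40 ± 0.056, with library totals 1.06). Rps2 stood at 7186, 8494, 8313 and 7902 against 4133, 4945, 4371 and 4489.8 CPM (1.17 ± 0.033). Rpl41, the smallest ribosomal protein, stood at 6890.4, 5712, 6195 and 6397 against 4321, 3355, 3549 and 3788 CPM (1.09 ± 0.033), and Rplp1, of the stalk that recruits translation factors, at 8868, 8225, 8689 and 8707 against 5950.2, 5589, 5687 and 6035 CPM (0.90 ± 0.027). Rpl36al was also higher under both scalings (0.89 ± 0.055).

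Rps24, Rpl39 and Rps14 were lower in erythroid progenitors under both scalings. Rps24 stood at 5212, 4959, 5111 and 5248 against 7751, 8090.2, 7994 and 8666 CPM (log2 change -0.33 ± 0.031), and Rpl39, a protein of the peptide exit tunnel, at 3168, 2519.7, 2544 and 2806 against 4554, 3859, 3842 and 4333 CPM (-0.26 ± 0.033). Rps14 (-0.09 ± 0.030) was lower in CPM in every library, but DESeq2 did not call it (adjusted p 0.493).

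The megakaryocyte-like class, which leads to platelets, had the fewest genes called of the 4 stage comparisons, and its members were called at about the share of all genes. Of 81 members, 40 passed, 11 higher and 29 lower, where 49.7% of all genes passed (23.9% higher, 25.8% lower), and the median change was -0.07. With library totals 11 members were higher and 36 lower, where 2338 of all 10148 genes were higher and 2688 lower. Rps9 stood at 4059, 4282, 4281 and 4171 against 5557, 5994, 5791 and 5848 CPM (log2 change -0.45 ± 0.036, adjusted p 2.55e-07), and Rpl37 at 3077, 2507, 2661 and 2599 against 3986, 3317, 3279.5 and 3652 CPM (-0.38 ± 0.044). Both were lower in all 4 libraries, as were Rps26 (-0.33 ± 0.050), a Diamond-Blackfan anemia gene at the mRNA exit channel, Rps13 (-0.27 ± 0.042) and Rpl3 (-0.26 ± 0.046). Rps27l was higher, at 508, 436, 487 and 525 against 357, 336, 337 and 409 CPM (0.46 ± 0.065), and so were Rpl7l1 (0.36 ± 0.079), Rpl6 (0.30 ± 0.039), Rpl21 (0.27 ± 0.039) and Rpl36al (0.25 ± 0.066). The count is fragile: 22 members passed without the library block, 27 with DESeq2, and 27, 25, 57 and 26 without WT replicate 1, WT replicate 2, YAP1 heterozygote replicate 1 and replicate 2. The erythroid and megakaryocyte comparisons share their HSPC-like samples, so likeness between them is no independent evidence.

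The counts by role and list, here and below, stand beside those of all genes tested, of which 42.1% were higher and 45% lower in mature neutrophils. In mature B cells these shares were 35.5% and 35%, in erythroid progenitors 39.9% and 40.8%, and in megakaryocyte-like cells 23.9% and 25.8%. A count near these shares is no result about its list. By role, the acidic stalk changed one way in neutrophils and erythroid progenitors and split in B cells. This stalk (Rplp1, Rplp2 and Rplp0), which recruits elongation factors, had 0 higher and 3 lower of 3 in mature neutrophils, 2 higher and 1 lower of 3 in mature B cells, 3 higher and 0 lower of 3 in erythroid progenitors and 0 higher and 1 lower of 3 in megakaryocyte-like cells. With library totals these counts were 0 higher and 3 lower, 1 higher and 1 lower, 2 higher and 0 lower and 0 higher and 1 lower. In erythroid progenitors the stalk median was 0.88 on the log2 scale, against 0.29 for the members and -0.02 for all genes. In mature B cells Rplp1 (0.28 ± 0.029) and Rplp2 (0.20 ± 0.031) were higher with TMM while Rplp0 was lower.

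The members mutated in Diamond-Blackfan anemia had 1 higher and 18 lower of 19 in mature neutrophils, 15 higher and 2 lower of 19 in mature B cells, 14 higher and 1 lower of 19 in erythroid progenitors and 1 higher and 7 lower of 19 in megakaryocyte-like cells, with medians of -1.02, 0.30, 0.27 and -0.07. With library totals the counts were 1 higher and 18 lower, 13 higher and 4 lower, 5 higher and 9 lower and 1 higher and 9 lower. In erythroid progenitors, the lineage of that anemia, their median was -0.07 with library totals, where that of all genes was -0.36. Rps24 was lower there as given above. Rps19, the gene most often mutated in that anemia, stood at 4349, 4115, 4232 and 4317 CPM in erythroid progenitors against 5097, 5281, 5155 and 5504 CPM in HSPC-like cells and did not pass with TMM (log2 change 0.03 ± 0.033, adjusted p 0.432). With library totals its log2 change was -0.31 (adjusted p 3.11e-06).

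The genes of the 5S ribonucleoprotein and of Mdm2 binding (Rpl23, Rps14, Rpl11, Rpl5 and Rps27l), through which free ribosomal proteins stabilise p53, had 0 higher and 5 lower of 5, 4 higher and 1 lower of 5, 4 higher and 1 lower of 5 and 1 higher and 2 lower of 5 in the same order of stages, or 0 higher and 5 lower, 3 higher and 1 lower, 1 higher and 2 lower and 1 higher and 2 lower with library totals. Rpl11 fell in mature neutrophils by a log2 change of -0.91 ± 0.052 and Rpl5 by -1.39 ± 0.054. The 4 X-linked members, Rps4x, Rpl10, Rpl39 and Rpl36a, had 0 higher and 4 lower of 4, 4 higher and 0 lower of 4, 3 higher and 1 lower of 4 and 0 higher and 1 lower of 4, or 0 higher and 4 lower, 2 higher and 0 lower, 0 higher and 3 lower and 0 higher and 2 lower with library totals.

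Ribosomal protein genes outside the naming rule did not all follow the members. Fau, whose product carries a small-subunit protein fused to a ubiquitin-like domain, was higher in mature neutrophils (0.89 ± 0.052), as Rps27a was with TMM, and in mature B cells (0.87 ± 0.027), and lower in megakaryocyte-like cells (-0.30 ± 0.039). Rack1, a scaffold protein on the small subunit, was lower in mature neutrophils (-1.60 ± 0.054).

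Genes that build ribosomes but are no part of them separated from the members in some stages. Of the genes for rRNA synthesis and processing, 1 higher and 29 lower of 34 in mature neutrophils, 9 higher and 16 lower of 36 in mature B cells, 31 higher and 2 lower of 36 in erythroid progenitors and 12 higher and 6 lower of 36 in megakaryocyte-like cells passed (with library totals 1 higher and 33 lower, 3 higher and 19 lower, 23 higher and 4 lower and 12 higher and 6 lower). Ncl, encoding nucleolin, changed by 0.93 ± 0.050 in erythroid progenitors, -0.80 ± 0.052 in mature B cells, -0.47 ± 0.067 in mature neutrophils and 0.27 ± 0.067 in megakaryocyte-like cells. Nop56, of the box C/D particles that methylate rRNA, changed by 0.89 ± 0.065, -0.45 ± 0.059, -1.93 ± 0.11 and 0.36 ± 0.083. In mature B cells the median of this list was -0.17, against 0.24 for the members. Chaperones and import factors of ribosomal proteins had 3 higher and 9 lower of 12, 2 higher and 7 lower of 14, 10 higher and 0 lower of 14 and 5 higher and 0 lower of 14, or 2 higher and 10 lower, 2 higher and 9 lower, 5 higher and 1 lower and 5 higher and 0 lower with library totals. Rrs1, which loads the 5S particle, fell by 2.997 on the log2 scale in mature neutrophils.

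The mitochondrial ribosomal proteins, which serve a separate ribosome, had 4 higher and 69 lower of 77 in mature neutrophils, 1 higher and 69 lower of 77 in mature B cells, 75 higher and 0 lower of 77 in erythroid progenitors and 39 higher and 2 lower of 77 in megakaryocyte-like cells. With library totals the counts were 1 higher and 74 lower, 0 higher and 75 lower, 64 higher and 3 lower and 37 higher and 2 lower. In mature B cells their median was -0.62 and that of the cytosolic members 0.24. In megakaryocyte-like cells it was 0.28 against -0.07. Other genes with TOP mRNAs, mostly translation factors, had 2 higher and 14 lower of 19, 3 higher and 11 lower of 19, 15 higher and 2 lower of 19 and 2 higher and 9 lower of 19, or 1 higher and 18 lower, 2 higher and 12 lower, 7 higher and 4 lower and 2 higher and 9 lower with library totals. In mature B cells more of them were lower than higher, where the members were mostly higher under both scalings. Growth regulators of ribosome supply had 5 higher and 8 lower of 16, 6 higher and 9 lower of 17, 10 higher and 4 lower of 17 and 5 higher and 4 lower of 17, or 4 higher and 11 lower, 3 higher and 9 lower, 5 higher and 7 lower and 5 higher and 4 lower with library totals. Among them Myc changed by -1.12 ± 0.087 in erythroid progenitors and 1.46 ± 0.20 in mature B cells. Larp1, which binds TOP tracts, changed by -2.63 ± 0.13 in mature neutrophils, and Eif4ebp1, an mTOR-controlled brake on translation, by 2.01 ± 0.058.

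Before the genotypes are compared, 1 property of the libraries bears on the members. The make-up of the member pool differed between the 2 WT libraries along the length of the coding sequence. The comparison held 81 members with at least 10000 UMIs. Each member's percent of the pool in a library was set against its mean over the other libraries, as a log2 ratio. A skew in a library therefore also enters the ratios of the others, with opposite sign, so the libraries are not independent here. The Spearman correlation of this ratio with coding length was -0.79 in WT replicate 1, 0.87 in WT replicate 2, 0.60 in YAP1 heterozygote replicate 1 and 0.02 in YAP1 heterozygote replicate 2, over members that share these libraries and their depth. The 10 members with a coding sequence of at most 300 bases had medians of 0.32, -0.18, -0.09 and -0.05, and the 15 with at least 700 bases had -0.10, 0.10, 0.04 and -0.02. In WT replicate 1, Rps28 (0.39) and Rplp0 (-0.29) marked the extremes. The correlation was below 0 in WT replicate 1 in 18 of 18 classes (-0.81 to -0.52) and above 0 in WT replicate 2 in all 18 (0.16 to 0.89). Its cause was not tested.

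**Figure D5:**
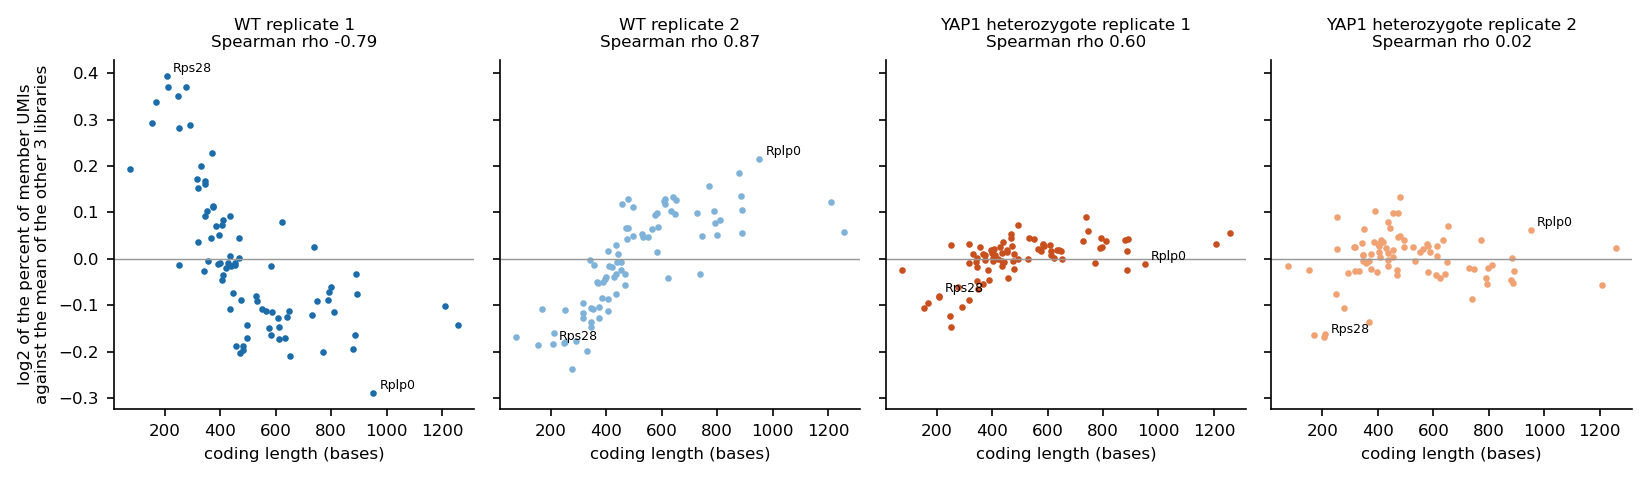
For each member with at least 10000 UMIs, the log2 ratio of its percent of member UMIs in a library to the mean over the other libraries (vertical axis) against the length of its coding sequence in bases (horizontal axis), 1 panel per library. Short members lie above 0 in WT replicate 1 and below 0 in WT replicate 2, and the correlation is near 0 (0.02) in YAP1 heterozygote replicate 2.

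Between the genotypes, neither the pool of ribosomal protein transcripts nor any member passed the test. Members took 16.2, 17.2, 16.2 and 17.2% of the UMIs of all kept cells. The values pair up by replicate number rather than by genotype: both replicates numbered 2 lay above both replicates numbered 1. The heterozygote mean of the member share differed from the WT mean by -0.058 percentage points (exact two-sided permutation test over 2 against 2 libraries, p = 0.667, where the smallest possible p is 0.333). With equal weight for each class the share was 18.9, 19.4, 19.03 and 19.8% and the difference 0.235 points (exact permutation p = 0.667). By class, the heterozygote libraries lay above the WT libraries without overlap in the T cell-like, erythroid progenitor-like, plasmacytoid dendritic cell-like and nonclassical monocyte-like classes and in cluster 15. Each of these had an exact permutation p of 0.333 and an adjusted p of 1. In T cells the values were 33.3, 33.3, 33.5 and 35.7%, and the gap between the highest WT and the lowest heterozygote library was smaller than the gap between the heterozygote libraries.

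Gene by gene, edgeR called 0 of 83 members between heterozygote and WT over all kept cells, where it called 0% of 15581 genes, and 0 members had an unadjusted p under 0.05, where 2.69% of genes did. DESeq2 called 12 of 22211 genes, of which 0 were members. The member changes were small: their median log2 change was 0.025, against 0.013 for all genes. Rps29, a short zinc-binding protein of the small subunit, had the smallest p: it stood at 4068, 3442, 3249 and 3331 CPM (log2 change -0.17 ± 0.11 SE, unadjusted p 0.175, adjusted p 0.999). WT replicate 1 was high and the other 3 libraries were close together.

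The same shape was seen in Rpl38 (2003, 1621, 1585 and 1616 CPM), Rps28 (2009, 1588, 1574 and 1597 CPM) and Rps21 (2146, 1734, 1679 and 1831 CPM), all short members and among the 10 with the smallest p. Rpl35 stood at 1101, 1012, 948 and 966 CPM. Rps27l, at 263, 265, 268 and 294 CPM, was higher in both heterozygote libraries than in either WT library. Rps10 (1274, 1519, 1440.4 and 1509 CPM) and Rpl24 (850.2, 1040.3, 956 and 1055 CPM) were lowest in WT replicate 1. The rare Rpl3l (4.01, 2.26, 2.55 and 2.74 CPM) and Rpl39l (0.372, 1.19, 0.823 and 0.162 CPM) complete the 10. None passed the adjustment (adjusted p 0.999 in edgeR). With WT replicate 1, WT replicate 2, YAP1 heterozygote replicate 1 or replicate 2 left out, the median member log2 change over all cells was -0.023, 0.075, 0.068 and -0.031. For all genes it was 0.007, -0.004, 0.007 and -0.002, so the side of the members depended on the libraries kept. Without overlap between genotypes, 1 of 83 members was above and 4 were below WT, against 11.1% and 15% of all genes.

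Within the 18 classes, edgeR called 0 members in 1468 tests, where it called 0.0543% of 162106 tests. An unadjusted edgeR p under 0.05 was reached by 4.72% of all tests and by 2 member tests. These were Rpl7l1 in mature B cells (log2 change 0.36, edgeR adjusted p 0.896) and Rpl3l in granulocyte-monocyte progenitor-like cells (log2 change -1.12, edgeR adjusted p 1.000). The count of 0 depended on which libraries entered: without WT replicate 2, 17 member tests passed, 3 higher and 14 lower in heterozygotes, 8 of them in granulocyte-monocyte progenitor-like cells, and 1 passed when YAP1 heterozygote replicate 1 was left out. Of all gene tests in the same fits, 1.63% and 0.466% passed, and 190 of 12390 in granulocyte-monocyte progenitor-like cells without WT replicate 2. Without WT replicate 2 the lone WT library is WT replicate 1, assumed to vary as the heterozygote libraries do. In CPM, which scales to library totals, 188 of the 1468 member tests lay above WT without overlap and 88 below, against 15.3% and 16.7% of all tests. Nonclassical monocyte-like cells held 37 members above WT and 1 below of 82, and plasma cell-like cells 0 above and 33 below of 81. Of all genes tested in these classes, 1175 of 6796 lay above WT in the first and 1590 of 4126 below WT in the second. The member share of nonclassical monocyte-like cells was lowest in WT replicate 1 (11.8, 14.1, 14.7 and 14.3%). The median member log2 change in that class was 0.150. With each library left out in turn, in the order used above, it was 0.043, 0.277, 0.153 and 0.142. The side of the plasma cell-like members depended on the scaling: their median log2 change was -0.20 with library totals (all genes -0.28) and 0.13 with TMM (all genes 0.02), with 3 and 73 of 81 higher.

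Paralog use did not pass a test between genotypes either. Rps27l as a percent of its pair lay above WT without overlap in 8 of 18 classes and below in 1. Over 123 pair and class combinations 13.8% lay above and 13.8% below. These 123 include the 18 of Rps27l itself and 18 of Rpl10l, which had 0 UMIs and could only overlap. The classes also share the same 4 libraries, so they are not separate observations. The lowest Rps27l percent over all cells was again that of WT replicate 1 (11.9, 14.03, 14.7 and 14.004%), where Rps27 stood at 1943, 1626, 1551 and 1804 CPM in the 4 libraries. Rpl22l1 lay above WT in 1 class and below in 6, and Rpl36al above in 5 and below in 2 of 17. Each non-overlap has an exact permutation p of 0.333 and an adjusted p of 1. Over all cells edgeR called 0 of 15581 genes, so the lists of ribosome-related genes could hold no called gene and this says nothing about them.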

How the data were processed

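Droplet single-cell RNA was measured in 4 libraries of sorted bone marrow cells. The authors deposited raw UMI counts per gene and barcode. Per the submitters' processing notes, the reads were processed with Cell Ranger 3.0.0 and Seurat 4.3.0 on GRCm38 (mm10), while the headers of the deposited count matrices name Cell Ranger 5.0.0, so the version in use is unsettled. Every deposited barcode had at least 500 UMIs.

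Barcodes below 500 UMIs or 200 genes, or above 10% mitochondrial UMIs, were dropped, and Scrublet (scanpy 1.11.5, expected rate 0.8% per 1000 cells) removed 3.38 to 4.40% as doublets. Cells were clustered on 2000 variable genes without the members (30 components, 15 neighbours, Leiden resolution 1.0). Counts summed per library and class were tested with edgeR 4.0.16 (R 4.3.3, quasi-likelihood, filterByExpr, TMM, Benjamini-Hochberg over all genes tested, threshold 0.05), after the test was checked on simulated data. DESeq2 1.42.0 was an alternative. Genotype fits held group only, and stage fits had the library as a block. Shares were compared by exact permutation over libraries. Cells are not replicates, and the limit for 0 UMIs (3 counts) covers counting error only.

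The 84 members and the gene lists were chosen with earlier results of these data known. Named members were both genes of each paralog pair, those with the 5 most and 5 fewest UMIs, the 8 most variable between classes (at least 0.2% of member UMIs), the 10 smallest p between genotypes, the 5 largest called changes per direction and stage, and 2 to 4 examples per role. Rpl11 and Rpl23 (steadiest) and the list genes named outside the members were chosen after their values were seen. Some genes that this rule names are not reported here. Coding lengths came from the GENCODE annotation of GRCm38.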

Additional observations from a re-analysis of the deposited data

How the results depend on the processing

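Depth and the number of libraries limited the genotype comparison: 2 against 2 cannot reach an exact p below 0.333, and a class was tested from 20 cells in each library. Of the alternatives of the main results, 80 values counted as the same, 7 turned and 2 moved. A count of called members was the same if its size was similar, and the direction of its members was not compared. The stage count with library totals was the same by this rule, although the erythroid split turned from 68 higher and 4 lower to 29 higher and 37 lower. The difference of the share over all cells, -0.058 percentage points, turned to 0.122 as a mean over cells and to 0.0687 with the alternative denominator, and ran from -0.575 to 0.460 with 1 library left out (0.441 if WT replicate 2 is dropped, 0.460 if YAP1 heterozygote replicate 1 is). The B cell stage difference turned to -1.20 with doublets kept and ran from 2.47 to 2.76 with 1 library left out. The erythroid difference turned to 0.368 with the alternative denominator and 0.124 with doublets kept, and ran from -0.631 to -0.0870 with 1 library left out. The neutrophil difference ran from -3.67 to -3.56 and the megakaryocyte difference from -2.21 to -1.28. Members called over the classes ran from 0 to 17 with 1 library left out. Members called over the 4 stages summed to 263, ran from 244 to 277 with 1 library left out, and were 239 with DESeq2, 271 with no filter and 209 with no library block. Apart from alternatives that leave out or add samples or genes by construction, the cause was not tested.

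The replicate numbers match across genotypes but mark no stated batch, and there are only 2 pairs. Over all kept cells and 13787 genes, the difference between the WT libraries correlated with that between the heterozygote libraries at 0.566. Over members the correlation was 0.0019. Within single classes the correlation over genes was lower, from -0.0603 in macrophage-like to 0.346 in monocyte-like cells. Over members it ran from -0.268 in cluster 15 to 0.376 in mature B cell-like cells. With the replicate block, the share difference was -0.058 and 0 members were called over all cells and 0 over the classes. The planned check that drops the single cell richest in a called member gave no value, since no member was called between genotypes.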
